A study of Mus musculus with 15 samples.

Results

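The regions described here are the 3 large olfactory receptor gene clusters of mouse chromosomes 2, 7 and 9, as seen from baits at Ifng, Pparg and Lpin1. They were chosen by position in the build mm9: 85.1 to 90.2 Mb of chromosome 2, 109.6 to 115.8 Mb of chromosome 7 and 37.5 to 40.2 Mb of chromosome 9. They hold 1638, 1994 and 915 HindIII sites, in that order, which are 4547 of the 823355 sites counted in every library. The question was whether these clusters met Ifng more often than Pparg and Lpin1 in 3T3-L1 cells.

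Olfactory receptors are G protein-coupled receptors of the sensory neurons of the nose. Their genes lie in long tandem clusters, each mature sensory neuron expresses very few of them, and in most other cell types the clusters are held in silent, compacted chromatin. Ifng encodes the cytokine interferon gamma of lymphocytes, Pparg the nuclear receptor PPAR gamma, the main regulator of adipocyte differentiation, and Lpin1 a phosphatidate phosphatase of fat synthesis. In 4C-seq (circular chromosome conformation capture with sequencing), DNA ends that lay close to a bait in the fixed nucleus are ligated to it, amplified and counted at the sites where the enzyme HindIII cuts. The files hold no expression, so the silence of the clusters in these cells was not measured.

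By gene order in the RefSeq annotation of GRCm38.p6, the cluster of chromosome 2 corresponds to the run of 222 receptor genes from Olfr987 to Olfr1274, between Lrrc55 and Ptprj, with 71 receptor pseudogenes and 3 other protein-coding genes (Fads2b, Pramel7 and Pramel6). On chromosome 9, 95 receptor genes from Olfr160 to Olfr986 lie between Panx3 and Zfp202, with 31 pseudogenes and 3 other protein-coding genes (Vwa5a, AW551984 and Tmem225). The chromosome 7 run is mixed. It has 193 receptor genes from Olfr543 to Olfr519 and 45 pseudogenes, but also 55 other protein-coding genes, among them the beta globin genes Hbb-bt and Hbb-bs, the TRIM family gene Trim30a, the acid sphingomyelinase Smpd1, the adhesion kinase Ilk and the transcription initiation subunit Taf10. The runs hold 510 of the 1110 protein-coding receptor genes of that annotation. This match rests on gene order, because the annotation is of another build than the counted sites.

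HindIII cuts at the letters AAGCTT, which are the same on both strands. One promoter with such a site is shown for each cluster, from 250 bases before to 50 bases after the gene start (RefSeq, GRCm38.p6), because a site of this kind is the unit that every value below counts. The capitals mark the HindIII letters, and the sequences run 5′ to 3′ on the gene's strand. Olfr154 lies on the minus strand at chr2:85664406-85664705, Olfr558 on the plus strand at chr7:102702073-102702372 and Olfr25 on the plus strand at chr9:38329242-38329541.
Olfr154: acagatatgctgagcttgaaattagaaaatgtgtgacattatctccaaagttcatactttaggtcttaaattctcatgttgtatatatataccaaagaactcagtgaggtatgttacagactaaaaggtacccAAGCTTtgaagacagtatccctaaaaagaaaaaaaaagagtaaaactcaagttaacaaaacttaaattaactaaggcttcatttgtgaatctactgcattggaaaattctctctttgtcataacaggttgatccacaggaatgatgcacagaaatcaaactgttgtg
Olfr558: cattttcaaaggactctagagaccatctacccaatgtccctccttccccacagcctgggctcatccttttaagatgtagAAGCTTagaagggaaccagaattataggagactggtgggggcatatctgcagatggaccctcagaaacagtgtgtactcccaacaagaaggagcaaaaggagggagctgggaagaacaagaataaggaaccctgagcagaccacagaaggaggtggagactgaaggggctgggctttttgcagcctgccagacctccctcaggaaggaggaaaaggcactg
Olfr25: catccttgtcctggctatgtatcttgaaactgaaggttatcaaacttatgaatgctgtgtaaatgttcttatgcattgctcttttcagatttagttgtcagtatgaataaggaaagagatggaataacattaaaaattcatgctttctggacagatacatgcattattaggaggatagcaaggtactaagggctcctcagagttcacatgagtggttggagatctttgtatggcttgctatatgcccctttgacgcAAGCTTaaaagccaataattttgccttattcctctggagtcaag
Of the receptor genes in the 3 runs, 435 had a promoter in the table, and 34 of those promoters (7.82%) held AAGCTT, against 7.36% of all 27025 promoters. The median GC content of the receptor promoters was 32.0%, 36.7% and 35.3% on chromosomes 2, 7 and 9, against 52.7% over all promoters. The Olfr154 and Olfr25 stretches printed above have 32.7% and 38.0% GC, and the Olfr558 stretch has 51.3%.

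The series holds 15 samples of mouse cell lines, 5 for each bait. 3T3-L1, a fibroblast line that turns into fat cells in culture, was sampled at days 0, 1, 2 and 6 after confluent cells received dexamethasone, isobutylmethylxanthine and insulin in serum, with insulin alone in serum from day 2 and serum alone later. A B lymphocyte cell line, whose name the labels do not give, is the other cell type. Each 3T3-L1 sample has 2 libraries and each B cell sample has 1, so a bait has 8 libraries in 3T3-L1 and 1 in B cells. The 2 libraries of a day belong to 1 sample and no label says that they are separate cultures, so n = 8 below counts libraries of 4 samples, and p-values over libraries measure a spread that may be technical.

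Sites with 1 read or more were taken as captured. Over the autosomes compared, which leave out the bait chromosomes 6, 10 and 12 and the clusters themselves, the captured share of sites was 2.07% to 7.25% in the Ifng libraries, 0.444% to 5.23% in the Pparg libraries and 0.451% to 3.88% in the Lpin1 libraries of 3T3-L1. Of captured sites, 41.9% to 75.1% had a single read with the Ifng bait, 20.4% to 42.8% with Pparg and 14.2% to 37.5% with Lpin1. Both shares moved with the bait. Library totals were 116031 to 3002206 reads, and 3.07% to 93.2% of them lay on the bait site. Of the Pparg and Lpin1 libraries, 5 captured under 1% of autosomal sites: Pparg day 1, day 2 and day 6 replicate 2, and Lpin1 day 1 and day 6 replicate 2.

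The clusters did not lack HindIII sites. They had 321, 322 and 339 sites per Mb on chromosomes 2, 7 and 9, against 309, 299 and 312 in the 3 Mb on each side of them and 318 over the other autosomes. Many of the sites, however, had no read in any of the 27 libraries: 75.3%, 75.5% and 76.4%, against 57.4%, 52.8% and 63.2% in the flanks and 61.3% of the other autosomes. How uniquely reads map to these sites was not tested.

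From Ifng, the clusters of chromosomes 2 and 7 were captured almost as often as other autosomal sequence in 3T3-L1, and from Pparg and Lpin1 all 3 clusters were captured far less often. The value given is a multiple: the captured share of the cluster over that of the other autosomes in the same library. On chromosome 2 the 8 Ifng libraries had multiples with a lowest value of 0.706, a median of 0.829 and a highest value of 1.13, the 8 Pparg libraries 0.0820, 0.338 and 0.729, and the 8 Lpin1 libraries 0.135, 0.275 and 0.565. All Ifng libraries lay above all Lpin1 libraries, as in 17.4% of 420 autosomal regions of about 5 Mb, and the ranges of Ifng and Pparg overlapped.

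The chromosome 7 cluster separated the baits most cleanly. Its multiples were 0.647, 0.880 and 1.06 (lowest, median and highest) with the Ifng bait, 0, 0.261 and 0.392 with the Pparg bait and 0.358, 0.449 and 0.510 with the Lpin1 bait. No Ifng library overlapped those of either other bait. All 8 Ifng libraries also lay above all 8 Pparg libraries in 21.9% of the 420 regions, and above all 8 Lpin1 libraries in 17.4%. The ranges of Pparg and Lpin1 overlapped. In the library at 0, Pparg day 6 replicate 2, none of the 1994 sites was captured, which allows a share of up to 0.150% and a multiple of up to 0.339, for counting error only.

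On chromosome 9 the multiples were 0.549, 0.719 and 0.849 with Ifng, 0, 0.262 and 0.609 with Pparg and 0.101, 0.466 and 1.21 with Lpin1. The Lpin1 libraries spread over the whole Ifng range here. Their extremes rest on few sites: 5 captured sites in Lpin1 day 6 replicate 2, the highest, and 1 in Lpin1 day 2 replicate 2, the lowest. Pparg day 6 replicate 2 again captured none, of 915 sites, which allows a multiple of up to 0.739.

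**Figure D1:**
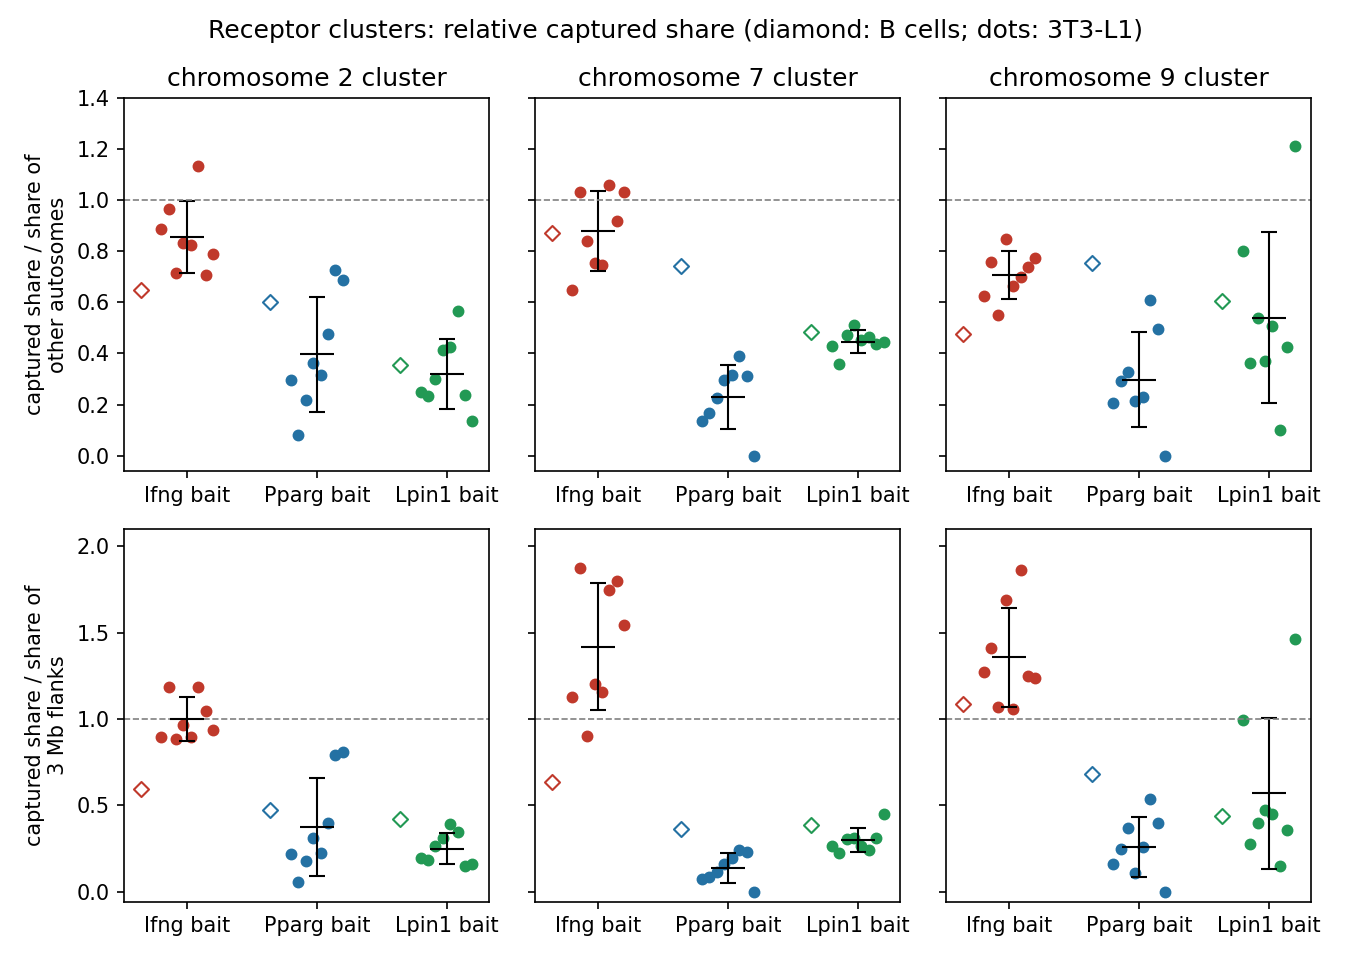
Captured share of each cluster over that of the other autosomes (top row, vertical axis, no unit) and over that of the 3 Mb flanks (bottom row), with the baits along the horizontal axis. Each dot is a 3T3-L1 library (8 per bait), the black mark and bar are their mean and SD, the open diamond is the B cell library, and the dashed line is equality. Relative to the flanks, 15 of the 16 Ifng dots of chromosomes 7 and 9 lie above the line and all Pparg dots lie below it.

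On average the multiple of the chromosome 2 cluster was 0.857 ± 0.141 with Ifng, 0.396 ± 0.223 with Pparg and 0.320 ± 0.138 with Lpin1 (SD, n = 8 each). That of the chromosome 7 cluster was 0.879 ± 0.156, 0.231 ± 0.126 and 0.446 ± 0.0436 with the same baits, and that of the chromosome 9 cluster 0.707 ± 0.0938, 0.297 ± 0.187 and 0.540 ± 0.335. Each was set against an equal share by an exact sign-flip permutation test of the log2 values (two-sided, 0.5 sites added to captured and expected sites, Benjamini-Hochberg over 9 tests). For Pparg the mean log2 values were -1.52, -2.22 and -1.76 on chromosomes 2, 7 and 9, each with an adjusted p of 0.0117 by the exact test. For Lpin1 they were -1.66, -1.13 and -1.06, with adjusted p of 0.0117, 0.0117 and 0.0201 by the exact test. For Ifng they were -0.24 (adjusted p = 0.0352), -0.20 (0.0859) and -0.50 (0.0117) by the same exact test, so the chromosome 7 cluster did not pass. The chromosome 2 call was lost when any of 7 of the 8 Ifng libraries was left out (adjusted p of 0.0527 to 0.0703, exact). The smallest p that 8 libraries allow is 0.0078 before adjustment, and with 1 value for each of the 4 samples the same test could not go below 0.125.

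Being below the autosomal share was common. Of 420 autosomal regions (417 tiles of 5 Mb and the 3 clusters), all 8 libraries were below it in 45.5% with Ifng, 38.8% with Pparg and 26.7% with Lpin1. The Ifng multiples of the clusters on chromosomes 2 and 7 were close to the tiles' median of 0.870, above 49.2% and 51.6% of the tiles, and that of chromosome 9 was above 27.1%. The Pparg multiples were above 13.4%, 1.68% and 6.95% of the tiles on chromosomes 2, 7 and 9, and the Lpin1 multiples above 2.88%, 7.67% and 14.1%. The clusters thus lay in the middle or lower middle of the genome as seen from Ifng, and in its lowest part as seen from Pparg and Lpin1.

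The difference between Ifng and Pparg passed the test for all 3 clusters. Ifng minus Pparg was 1.28, 2.02 and 1.26 on the log2 scale on chromosomes 2, 7 and 9, or 2.43-fold, 4.05-fold and 2.39-fold, with adjusted p of 0.00463, 0.00278 and 0.00278 (exact permutation of bait labels within days, 1296 arrangements, two-sided, Benjamini-Hochberg over 9 comparisons). The mean of the 2 libraries was higher for Ifng on 4 of 4 days in each cluster. Leaving out each library in turn gave log2 differences of 1.08 to 1.48 on chromosome 2 and 1.69 to 2.34 on chromosome 7. On chromosome 9 they were 0.978 to 1.53. Pparg day 6 replicate 2 captured no site in the clusters of chromosomes 7 and 9. Its log2 values there, -4.23 and -3.19, depend on the 0.5 sites added. With the 2 libraries of a sample averaged, 4 values against 4, the adjusted p was 0.0429 for each cluster (exact permutation test). Bait labels were permuted across days there, not within them, and p before adjustment was the lowest that this allows. Permuted within days, the 4 samples of a bait could not give a p below 0.125. On chromosome 2 the size of the difference varied between days, with log2 values of 2.41, 1.37, 1.29 and 0.06 on days 0, 1, 2 and 6.

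Ifng minus Lpin1 was 1.42 and 0.93 on the log2 scale for chromosomes 2 and 7, or 2.67-fold and 1.90-fold, each with an adjusted p of 0.00278 by the same exact test within days. Over sample averages permuted across days it was 0.0429 for each (exact permutation test). For chromosome 9 it was 0.56 with an SD over the 4 days of 0.55, and did not pass (adjusted p = 0.121, exact permutation test). That value turned on single Lpin1 libraries: it was 0.73 (adjusted p = 0.0162, exact) without day 6 replicate 2, 0.70 (adjusted p = 0.0496, exact) without day 0 replicate 1, and 0.33 without day 2 replicate 2. Without the 5 libraries under 1% of captured sites, an alternative added after the data were seen, it was 0.74 with an adjusted p of 0.00942 by permutation. Bait labels were permuted there over all libraries left, with days ignored. Both the libraries and the test therefore differ from those behind the 0.56. Between Pparg and Lpin1 the chromosome 7 cluster alone passed, with Pparg minus Lpin1 at -1.09 (adjusted p = 0.00278), against 0.14 (0.698) on chromosome 2 and -0.70 (0.179) on chromosome 9 by the exact test.

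The number of reads was then matched by drawing 11622 from each library, once and at random. How far the values and calls vary between draws was not tested. Captured shares of autosomal sites still differed between the baits, at 1.13% to 1.54% with Ifng, 0.383% to 1.14% with Pparg and 0.243% to 1.21% with Lpin1. Ifng minus Pparg was then 1.30, 1.91 and 1.36 on chromosomes 2, 7 and 9 (adjusted p of 0.0174, 0.0139 and 0.0174, exact permutation test), and Ifng minus Lpin1 was 1.07, 0.87 and 0.69 (0.0174, 0.0722 and 0.198), so its call for chromosome 7 was lost. The call of Pparg minus Lpin1 on chromosome 7 was lost too (-1.04, adjusted p = 0.139, exact), as it was with reads in place of captured sites (-1.33, 0.190). With sites of at least 2 reads, which sets aside the single-read sites that were most frequent with Ifng, Ifng minus Pparg was 1.42, 1.88 and 1.12, and Ifng minus Lpin1 was 1.44, 0.69 and 0.39.

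Differences between baits were frequent across the genome, so the calls alone do not single out the clusters. All 8 Ifng libraries lay above all 8 Pparg libraries in 21.9% of the 420 regions, and 1 of the 3 clusters (chromosome 7) was among them. The share for Ifng above Lpin1 was 17.4%, and 2 of 3 clusters (chromosomes 2 and 7) were among them. By size, Ifng minus Pparg of the clusters exceeded that of 86.1%, 96.2% and 85.6% of the 417 tiles on chromosomes 2, 7 and 9, where the tiles' median was 0.08 on the log2 scale. Ifng minus Lpin1 exceeded that of 93.3%, 86.6% and 74.8% of the tiles, with a median of -0.04.

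**Figure D2:**
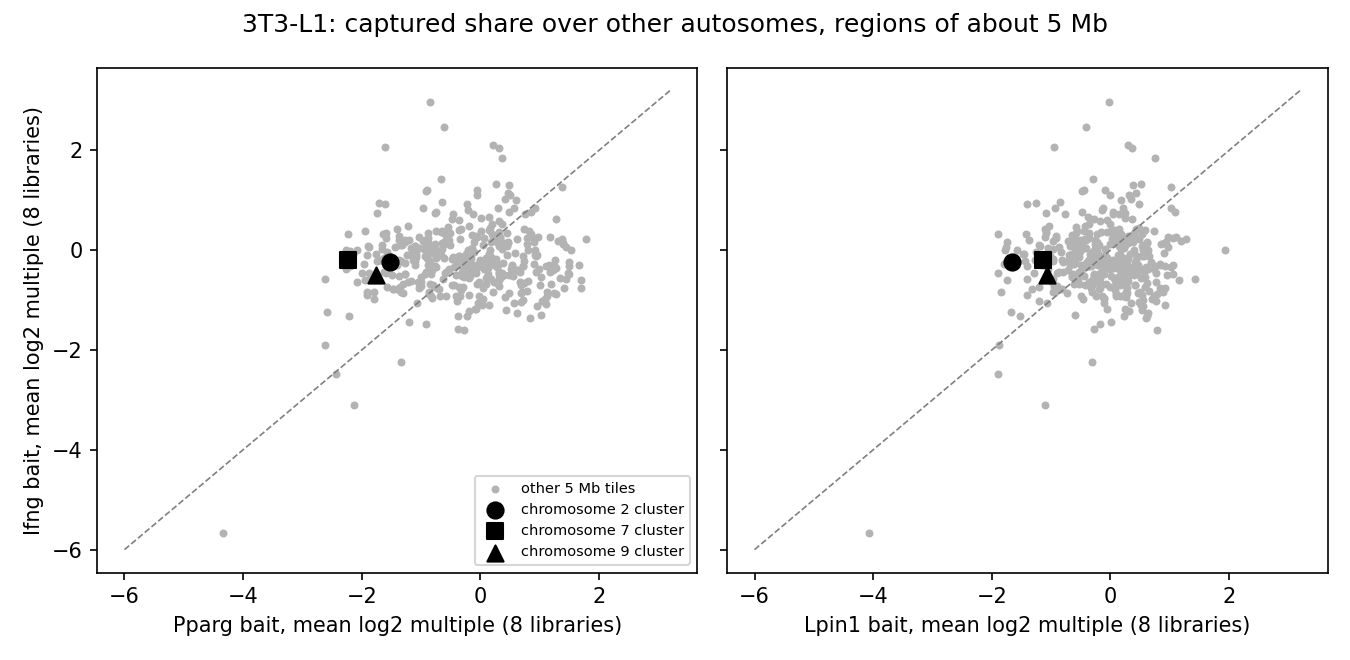
Mean log2 multiple over 8 3T3-L1 libraries with the Ifng bait (vertical axis) against that with the Pparg bait (left, horizontal axis) and the Lpin1 bait (right). Grey dots are 417 autosomal tiles of 5 Mb, black symbols are the 3 clusters, and the dashed line is equality. The clusters lie above the line, near the middle of the tiles on the Ifng axis and toward the low end on both other axes.

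Across the 417 tiles the baits had different preferences. The Spearman correlation of the log2 multiples was 0.84 between Pparg and Lpin1, 0.01 between Ifng and Pparg and -0.05 between Ifng and Lpin1. Tiles with more HindIII sites had lower multiples with Pparg (rho = -0.48) and Lpin1 (rho = -0.47) and not with Ifng (rho = -0.05). These values are a description, since tiles share libraries and neighbours and the number of sites follows base composition.

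A fit that treats each cluster as 1 feature among the 5 Mb tiles was added after the data were seen (edgeR quasi-likelihood, Benjamini-Hochberg over 419 regions tested). In it, 42.2% of the regions were called higher with Ifng than with Pparg, and so were all 3 clusters, with log2 differences of 1.27 ± 0.17, 1.88 ± 0.16 and 1.20 ± 0.23 (SE) on chromosomes 2, 7 and 9. Without Pparg day 6 replicate 1, whose removal leaves day 6 with only the library at 0 in both clusters, the values of chromosomes 7 and 9 were 3.56 and 2.77. Ifng against Lpin1 gave 1.61 ± 0.20, 1.07 ± 0.15 and 0.51 ± 0.22, all called, against 37.5% of the regions. The chromosome 9 call (edgeR adjusted p = 0.0280) was lost with DESeq2 (adjusted p = 0.0983), with at least 2 reads (edgeR adjusted p = 0.271) and in 6 of the 16 fits that left out 1 library (edgeR adjusted p up to 0.268), and its log2 value was 0.30 without Lpin1 day 6 replicate 1 and 1.01 without Lpin1 day 2 replicate 1. A call was thus common at this scale. Pparg minus Lpin1 was -0.81 ± 0.23 on chromosome 7 and was called lower (edgeR adjusted p = 0.00185), as were 17.2% of the regions, and it missed the threshold on chromosome 9 at -0.69 ± 0.30 (edgeR adjusted p = 0.0523). Without Pparg day 6 replicate 1 these were -2.49 and -2.26, and chromosome 9 passed in 6 of the 16 fits that left out 1 library.

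Taken as a whole, the flanks ranked the baits the other way round. The 3 Mb flanks of chromosomes 2, 7 and 9 had mean multiples over the autosomes of 0.860 ± 0.0991, 0.640 ± 0.129 and 0.533 ± 0.0827 with Ifng, against 1.20 ± 0.224, 1.75 ± 0.230 and 1.35 ± 0.477 with Pparg and 1.28 ± 0.270, 1.55 ± 0.269 and 1.01 ± 0.266 with Lpin1 (SD, n = 8 libraries each). On average Pparg and Lpin1 therefore met the sequence around the clusters at or above the autosomal mean, and Ifng met it below. Each cluster had 12 flank windows of 500 kb. On chromosomes 2, 7 and 9, 6, 2 and 2 of them were below the autosomal share with Pparg. With Lpin1 4, 1 and 6 were, and with Ifng 9, 11 and 12. From 82.0 to 83.5 Mb of chromosome 2, window multiples were 0.959 to 1.16 with Ifng. They were 0.0979 to 0.365 with Pparg and 0.0605 to 0.358 with Lpin1, so part of this flank had its highest values with Ifng, like the cluster. At 90.0 to 90.5 Mb of chromosome 2 the multiples were 1.09 with Ifng, 0.266 with Pparg and 0.339 with Lpin1. That window was counted as flank, although the cluster ends inside it, at 90.2 Mb. The chromosome 7 flank had 1.32, 0.435 and 0.491 at 116.0 to 116.5 Mb, in the same order of baits. In every other flank window the highest mean was that of Pparg or Lpin1.

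Set over their own flanks, the chromosome 7 cluster averaged 1.42 ± 0.368 with Ifng, 0.137 ± 0.0845 with Pparg and 0.297 ± 0.0699 with Lpin1. The chromosome 9 cluster averaged 1.36 ± 0.286, 0.260 ± 0.173 and 0.569 ± 0.438, and the chromosome 2 cluster 0.998 ± 0.127, 0.373 ± 0.282 and 0.249 ± 0.0917, in the same order of baits (SD, n = 8 each). With Ifng, the clusters of chromosomes 7 and 9 were above their flanks, with mean log2 values of 0.46 (adjusted p = 0.0201) and 0.40 (0.0117), and that of chromosome 2 was at -0.01 (0.852), by the exact sign-flip test. Both calls were lost with sites of at least 2 reads (0.36 and 0.16), with 11622 reads from each library (0.47 and 0.38) and with a flank of 1 Mb (0.23 and 0.30). With Pparg the log2 values were -1.76, -3.01 and -2.10, and with Lpin1 -1.97, -1.74 and -1.05 on chromosomes 2, 7 and 9, all passing the exact test with adjusted p of 0.0117 to 0.0264. The Lpin1 call on chromosome 9 was lost without any of 6 of the 8 libraries (adjusted p of 0.0527, exact), with at least 2 reads, with a flank of 1 Mb and with the low-coordinate flank alone.

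The bait differences were larger on this scale. Ifng minus Pparg was 1.75, 3.46 and 2.50 and Ifng minus Lpin1 was 1.96, 2.20 and 1.45 on the log2 scale for chromosomes 2, 7 and 9, with adjusted p of 0.00278 for 5 of the 6 and 0.00595 for Ifng minus Lpin1 on chromosome 9 (exact permutation of bait labels within days). Over sample averages permuted across days the adjusted p was 0.0367 for all 6 (exact permutation test), from the lowest p that this allows before adjustment. All 8 Ifng libraries lay above all 8 Pparg libraries in each cluster, as in 18.6% of the 420 regions set over their own 3 Mb flanks. They lay above all 8 Lpin1 libraries on chromosomes 2 and 7, as in 17.1% of those regions. Against the flank on the low-coordinate side alone, Ifng minus Pparg of chromosome 2 was 0.93 and did not pass (adjusted p = 0.0516, exact). Pparg minus Lpin1 was -1.27 on chromosome 7 (adjusted p = 0.00463), against 0.22 (0.603) on chromosome 2 and -1.05 (0.0955) on chromosome 9 by the exact test.

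**Figure D3:**
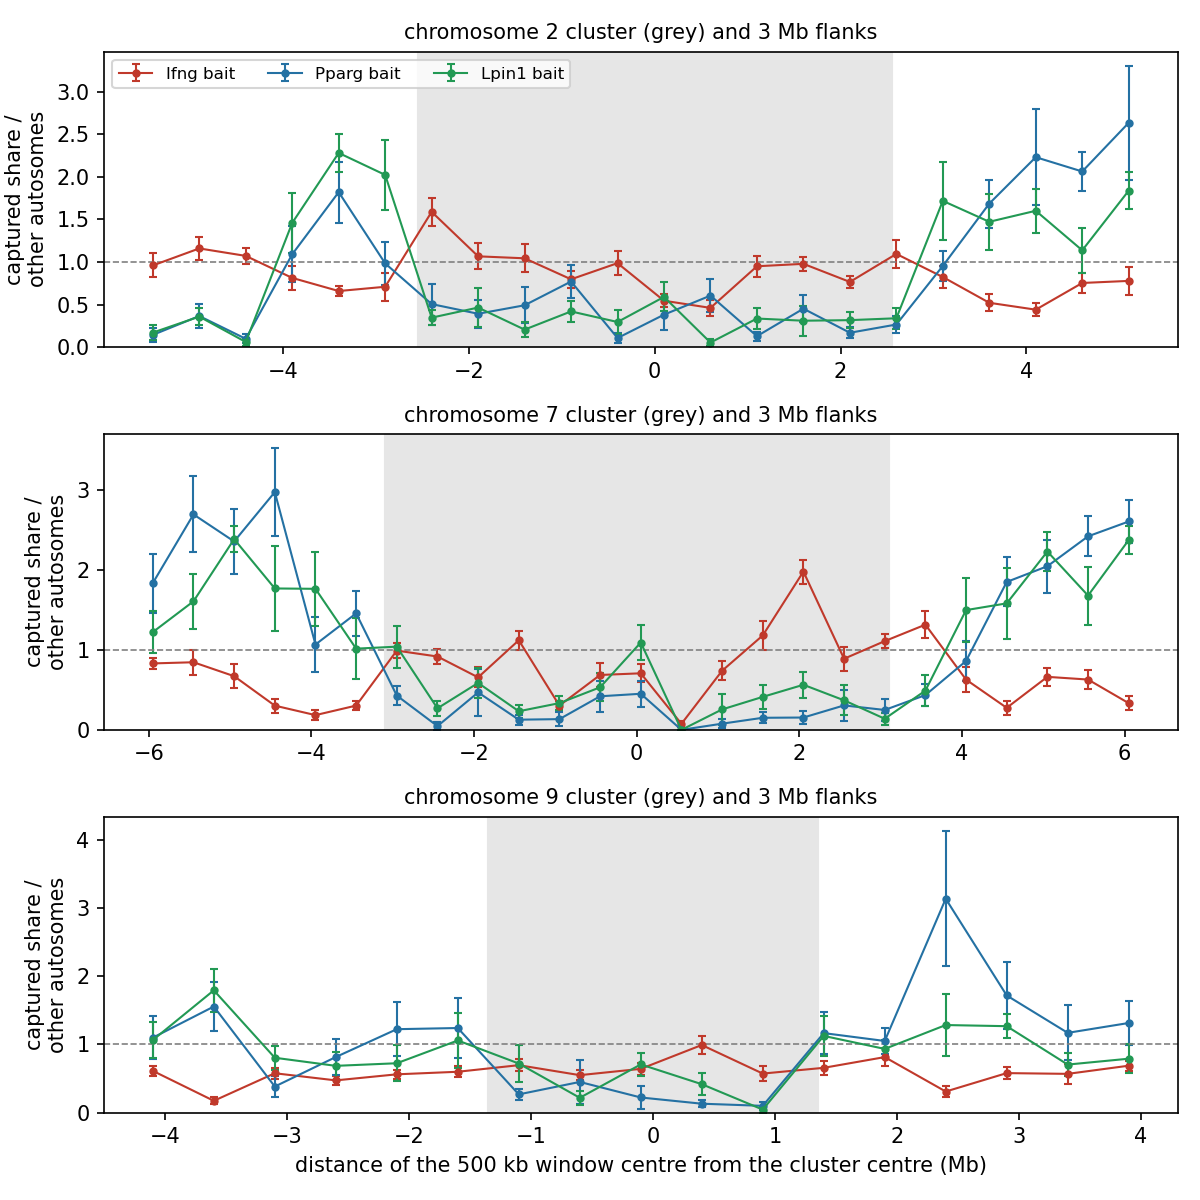
Captured share of 500 kb windows over that of the other autosomes (vertical axis, no unit) against the distance of the window from the cluster's centre in Mb, for each cluster (grey band) and its flanks in 3T3-L1. Points are means of 8 libraries per bait and bars are standard errors, the dashed line is the autosomal share. With Pparg, all 10, 13 and 5 cluster windows lie below the line, and with Ifng 7, 9 and 5 of them do.

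Within the clusters the level was uneven. Over the 10 windows of 500 kb of the chromosome 2 cluster the mean multiple ranged over 0.461 to 1.59 with Ifng (median 0.964), 0.107 to 0.771 with Pparg (0.422) and 0.0539 to 0.590 with Lpin1 (0.326). The 13 windows of chromosome 7 ranged over 0.0754 to 1.98 with Ifng (0.890), 0 to 0.468 with Pparg (0.154) and 0 to 1.09 with Lpin1 (0.369). The 5 windows of chromosome 9 ranged over 0.549 to 0.991 with Ifng (0.641), 0.0989 to 0.449 with Pparg (0.221) and 0.0439 to 0.719 with Lpin1 (0.416).

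On chromosome 2, one of the 2 windows with the highest mean over the baits was the first, at 85.0 to 85.5 Mb, with 1.59 ± 0.454 for Ifng, 0.506 ± 0.682 for Pparg and 0.346 ± 0.239 for Lpin1 (SD, n = 8). The other, at 86.5 to 87.0 Mb, had close means for Ifng and Pparg, 0.797 ± 0.278 and 0.771 ± 0.555, against 0.419 ± 0.362 for Lpin1. In the lowest, at 88.0 to 88.5 Mb, the Ifng multiple of 0.461 ± 0.256 was below the Pparg multiple of 0.605 ± 0.536, and Lpin1 had 0.0539 ± 0.104.

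On chromosome 7 the peak was at 114.5 to 115.0 Mb, with 1.98 ± 0.426 for Ifng, 0.154 ± 0.226 for Pparg and 0.564 ± 0.464 for Lpin1. At the low edge, 109.5 to 110.0 Mb, Ifng and Lpin1 were close, at 0.991 ± 0.274 and 1.04 ± 0.742, against 0.429 ± 0.324 for Pparg. The window at 113.0 to 113.5 Mb was nearly empty for every bait: over 8 libraries each, its 149 sites were captured 4 times with Ifng and never with Pparg or Lpin1.

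On chromosome 9 the highest windows began at 37.5 Mb and at 38.5 Mb, and there Ifng and Lpin1 had close means, 0.695 ± 0.250 and 0.719 ± 0.768 in the first and 0.641 ± 0.261 and 0.706 ± 0.460 in the second, against 0.267 ± 0.239 and 0.221 ± 0.458 for Pparg. The lowest, at 39.5 to 40.0 Mb, had 0.572 ± 0.320 for Ifng, 0.0989 ± 0.164 for Pparg and 0.0439 ± 0.124 for Lpin1. The window between the 2 highest, at 38.0 to 38.5 Mb, had 0.549 ± 0.205 for Ifng, 0.449 ± 0.913 for Pparg and 0.217 ± 0.297 for Lpin1, so the order of the means varied from window to window.

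In the edgeR fit of 500 kb windows only 10 of the 28 cluster windows had the mean of 3 captured sites that was required, and they had it mainly through the Ifng libraries, so their calls support nothing. Of these 10, 9 were called higher with Ifng than with Pparg, where 39.3% of all 3237 windows tested were, and 8 higher than with Lpin1, where 35.7% were. The smallest p against Pparg belonged to 2 windows of chromosome 7, which began at 114.5 and 111.0 Mb, and to the one at 85.0 Mb of chromosome 2, with log2 differences of 4.23 ± 0.54, 3.16 ± 0.57 and 2.19 ± 0.41 (SE). Against Lpin1 those that began at 114.5 Mb and 85.0 Mb came first, at 2.43 ± 0.41 and 3.10 ± 0.56, followed by 115.5 to 116.0 Mb of chromosome 7 at 3.87 ± 0.72. In the flanks 31 of 36 windows were tested, with 4 called higher with Ifng than with Pparg and 15 lower, where 27.4% of all windows were lower.

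Single sites were rarely captured more than a few times. Sites captured in 3 or more libraries were 4.82%, 4.81% and 3.61% of the cluster sites on chromosomes 2, 7 and 9, against 7.17%, 7.41% and 4.59% of the flank sites and 7.52% of the other autosomal sites. Of the 24 libraries of 3T3-L1, the most frequent cluster site, at chr7:114285778-114285783, was captured in 9, of which 5 were Ifng, 1 Pparg and 3 Lpin1. The next on chromosome 7, at chr7:114468395-114468400, was captured in 7 libraries, all Ifng. On chromosome 2 the leading site, chr2:86807345-86807350, was captured in 4 Ifng and 3 Pparg libraries, and on chromosome 9 the leading site, chr9:37987096-37987101, in 4 Ifng, 1 Pparg and 3 Lpin1 libraries.

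Across the days of adipogenesis no cluster changed by the test over the 3 baits. The lowest p was that of the chromosome 2 cluster on day 2 against day 0, 0.0463 with an adjusted p of 0.278 (exact permutation within baits, 9 comparisons), at a mean log2 difference of 0.75. Each day is 1 sample a bait, so days and cultures cannot be told apart, and for 1 bait 2 libraries against 2 cannot give a p below 0.333. The Ifng means were 0.928, 0.775, 0.979 and 0.747 on days 0, 1, 2 and 6 for chromosome 2, 0.840, 0.798, 0.903 and 0.976 for chromosome 7 and 0.691, 0.699, 0.681 and 0.755 for chromosome 9.

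The day with the largest difference was day 6 of the chromosome 2 cluster with the Pparg bait. The 2 libraries had multiples of 0.729 and 0.688 on day 6, against 0.297 and 0.0820 on day 0, so both day 6 values were above both day 0 values, as in 30.5% of the 420 regions. They rest on 21 and 5 captured sites on day 6, against 18 and 2 on day 0. In the edgeR fit of 5 Mb regions, where 1.19% were called higher on day 6, the log2 difference was 1.47 ± 0.46 (SE, adjusted p = 0.0277). The call was lost without Pparg day 0 replicate 2 (1.14, edgeR adjusted p = 0.143), without day 6 replicate 1 (1.43, 0.562) and with at least 2 reads (1.62, 0.138). On the same days this cluster had Ifng multiples of 0.706 and 0.788 on day 6, against 0.889 and 0.967 on day 0, so both were lower on day 6, as in 18.3% of the regions. On chromosome 7 the day 6 multiples were 0.313 and 0, against 0.136 and 0.168 on day 0, and on chromosome 9 they were 0.497 and 0, against 0.207 and 0.294. The edgeR log2 differences there, 0.63 ± 0.58 and 0.61 ± 0.70 (SE), were not called, and the clusters were not tested against each other.

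In the Lpin1 libraries the chromosome 2 means were 0.241, 0.358, 0.495 and 0.186 on days 0, 1, 2 and 6, and the chromosome 7 means 0.394, 0.491, 0.458 and 0.442. The chromosome 9 means were 0.583, 0.455, 0.304 and 0.818, the last from libraries at 0.425 and 1.21 with 4 and 5 captured sites.

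**Figure D4:**
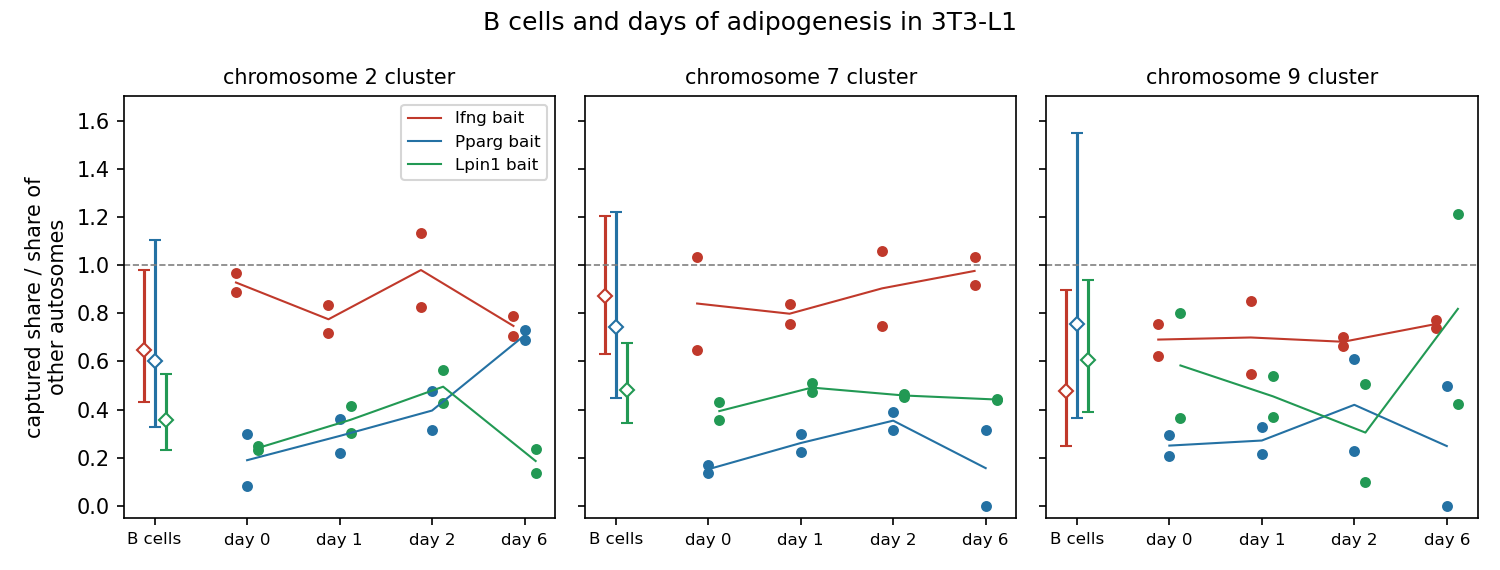
Captured share of each cluster over that of the other autosomes (vertical axis, no unit) in the B cell libraries and on days 0, 1, 2 and 6 of 3T3-L1. Dots are libraries, lines join the means of a day, open diamonds with bars are the B cell libraries with 95% Wilson intervals, and the dashed line is equality. The Ifng line stays above the Lpin1 line on every day for chromosomes 2 and 7, and the Pparg day 6 means are 0.708 for chromosome 2 and 0.157 for chromosome 7.

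The B cell line gave 1 library a bait. The chromosome 2 cluster had a multiple of 0.649 with Ifng (95% Wilson interval 0.429 to 0.979, counting error only), 0.602 with Pparg (0.327 to 1.10) and 0.356 with Lpin1 (0.231 to 0.547). The chromosome 7 cluster had 0.873 (0.632 to 1.20), 0.741 (0.450 to 1.22) and 0.482 (0.344 to 0.674), and the chromosome 9 cluster 0.475 (0.251 to 0.898), 0.754 (0.366 to 1.55) and 0.605 (0.388 to 0.938), in the same order of baits. The baits were not tested against each other in B cells, and the intervals of all 3 baits overlap in each cluster. Over their own flanks, the clusters of chromosomes 2, 7 and 9 had 0.594, 0.635 and 1.08 with Ifng in B cells. They had 0.472, 0.365 and 0.683 with Pparg and 0.420, 0.386 and 0.437 with Lpin1. With Ifng the chromosome 7 cluster was thus below its flanks in B cells, and on average above them in 3T3-L1. Those flanks had a multiple of 1.37 over the autosomes in the Ifng library of B cells. The flank values of B cells were not tested.

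B cells minus 3T3-L1, averaged over the baits, was 0.21, 0.64 and 0.40 on the log2 scale for chromosomes 2, 7 and 9 and passed in none (adjusted p of 0.584, 0.465 and 0.531, exact permutation within baits). By bait, the Pparg library of B cells was above all 8 Pparg libraries of 3T3-L1 on chromosomes 7 and 9, a place it held in 22.4% of the 420 regions. The Ifng library of B cells was below all 8 Ifng libraries of 3T3-L1 on chromosomes 2 and 9, as in 31% of the regions. The edgeR fit of 5 Mb regions called the chromosome 7 cluster higher in B cells than in 3T3-L1 with Pparg, at 1.60 ± 0.47 (SE, adjusted p = 0.0132), where 4.53% of the regions were called higher. That value was 3.28 without Pparg day 6 replicate 1, and the call was lost with DESeq2 (adjusted p = 0.0643) and with at least 2 reads (edgeR adjusted p = 0.216). The fit assumes that the lone B cell library varies like the libraries of 3T3-L1.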

How the data were processed

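The authors deposited 27 files, 1 per library, holding raw read counts, with no normalisation, for each of the 823355 HindIII sites. The alignment used Bowtie, without a version, to mm9, per the submitters' processing notes. Read filters and removal of PCR duplicates are not given in the sources used here. Replicate numbers come from the deposited names.

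Libraries were grouped by bait, day and cell line as labelled. Captured sites (at least 1 read) were summed per cluster, over 3 Mb on each side, and over autosomes outside chromosomes 6, 10 and 12 and outside the clusters. The log2 value of a library is log2((captured + 0.5)/(expected + 0.5)), with the expected number from the flanks or the autosomes. Intervals (Wilson, 95%) and the limit for a count of 0 (3 sites) cover counting error only, since PCR reads are not independent molecules.

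Exact permutation tests were computed in Python 3.11.15 with NumPy 2.4.6, two-sided, with Benjamini-Hochberg adjustment within families of 9 (3 for B cells) and a threshold of 0.05. Captured sites in 500 kb windows, and in 5 Mb tiles of at least 200 sites with each cluster as 1 feature, were fitted with edgeR 4.0.16 in R 4.3.3 (TMM, quasi-likelihood, robust, 1 fit of 27 libraries in 15 groups, mean of at least 3 captured sites). In simulated data for Ifng minus Pparg, 90% of 2-fold and 100% of 4-fold changes were recovered among 419 regions of 5 Mb, and 21% and 76% among 3237 windows of 500 kb. At each fold 30 regions or 100 windows were changed, far fewer than were called in the real data. The spread was assumed and equal for all libraries, so these shares do not measure the power of the fits on the real libraries. An SE given with an edgeR value is approximate: the absolute log2 difference over the square root of its quasi-likelihood F statistic, with libraries as the unit. Alternatives included DESeq2 1.42.0. Windows named are, per cluster, the 2 highest and the lowest by the mean of the 3 baits, and up to 3 per contrast by smallest p; sites named are those captured in most libraries. The regions, lists and tests were chosen with earlier results of these data known. Same-numbered replicates of different baits deviated together only weakly (correlations of 0.00324 to 0.0802 over 12 pairs of groups, all positive and none over 0.1), so no block was used. Depth did follow the replicate number with Pparg and Lpin1, where replicate 2 captured a smaller share of autosomal sites than replicate 1 on every day. With Ifng it did so on day 2 only.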

Additional observations from a re-analysis of the deposited data

Results flagged for a closer look

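In a group of 8 libraries, Lpin1 day 6 replicate 2 stood apart in the chromosome 7 cluster relative to its flanks, with a log2 value of -1.061, above the other 7 Lpin1 libraries. It captured 4 sites in the cluster and 8 in the flanks. This was the only library marked among 18 groups of 8, and chance marks about 1 in 20 groups.

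The chromosome 2 cluster moved in opposite directions with 2 baits on day 6 against day 0: the log2 difference was -0.3074 with Ifng and 2.045 with Pparg, with both libraries of day 6 beyond both of day 0 for each bait. In the chromosome 9 cluster the B cell library was below all 8 libraries of 3T3-L1 with Ifng, at a log2 difference of -0.5292, and above all 8 with Pparg, at 1.376. Neither difference between baits was tested, and they are 2 of 18 pairs of baits looked at.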

How the results depend on the processing

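The direction of Ifng minus Pparg and of Ifng minus Lpin1 was the same in all 444 values computed under alternatives for these 18 results, and 10 of the calls were lost there. Relative to the autosomes, Ifng minus Lpin1 of chromosome 7 was 0.87 after thinning to 11622 reads, no longer passing. Relative to the flanks, Ifng minus Pparg of chromosome 2 was 0.93 with the low-coordinate flank alone, also no longer passing. Ifng minus Lpin1 of chromosome 9 came to pass with reads in place of sites (2.11) and without libraries under 1% of captured sites (0.74). The latter alternative was chosen after seeing the data, and its test ignored days. When libraries were left out in turn, Ifng minus Lpin1 of chromosome 9 ranged over 0.33 to 0.79, with 2 of 16 leave-outs passing.

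Counting only sites read in at least 1 library, a set that the Ifng reads help to choose, turned Ifng over the autosomes to 0.41, 0.45 and 0.20 on chromosomes 2, 7 and 9 and over the flanks of chromosome 2 to 0.77. Under it Lpin1 of chromosome 9 no longer passed over autosomes (-0.39) or flanks (-0.44), nor Pparg of chromosome 2 over flanks (-0.997), and day 1 minus day 0 of chromosome 9 was -0.0089. Ifng over the autosomes no longer passed on chromosome 2 after thinning (-0.39), and came to pass on chromosome 7 after thinning (-0.43) and with only the own bait chromosome left out (-0.29). Leaving out libraries gave -0.29 to -0.20 for chromosome 2, and the call was lost in 7 of 8 such fits.

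Over the flanks, Ifng of chromosome 2 turned positive with at least 2 reads (0.060), with reads (0.018) and with the high-coordinate flank (0.18), and ranged over -0.049 to 0.012 without a library. Ifng lost its call on chromosome 7 with at least 2 reads (0.36), reads (0.52), thinning (0.47), a 1 Mb flank (0.23) and the high-coordinate flank (0.27), and on chromosome 9 with at least 2 reads (0.16), thinning (0.38) and a 1 Mb flank (0.30). Lpin1 of chromosome 9 lost it with at least 2 reads (-0.99), a 1 Mb flank (-0.66) and the low-coordinate flank (-0.94), and ranged over -1.27 to -0.87 without a library, losing it in 6 of 8 fits. Lpin1 of chromosome 7 lost it with a 1 Mb flank (-0.85), and Pparg of chromosome 2 with the low-coordinate flank (-1.07).

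Pparg minus Lpin1 of chromosome 7 no longer passed with reads (-1.33) or thinning (-1.04), nor over flanks with reads (-1.59), thinning (-1.33) or a 1 Mb flank (-1.04). That of chromosome 9 was 0.040 with reads, passed over flanks of 1 Mb (-1.25) and over the high-coordinate flank (-1.37), and ranged over -1.42 to -0.68 there without a library. That of chromosome 2 was -0.23 with thinning, -0.25 without libraries under 1% and -0.059 to 0.34 without a library, and over flanks -0.20 with reads, -0.065 with thinning, -0.0024 with the high-coordinate flank and -0.19 without libraries under 1%. B cells minus 3T3-L1 of chromosome 2 was -0.025 with at least 2 reads and -0.10 to 0.50 without a library, and that of chromosome 9 was -0.088 to 0.86. Day 6 minus day 0 of chromosomes 7 and 9 was -0.35 and -0.24 with reads, and -0.37 to 0.49 and -0.24 to 0.50 without a library. On chromosome 9, day 1 minus day 0 was -0.17 with reads and -0.17 to 0.19 without a library, and day 2 minus day 0 was 0.18 with thinning and -0.47 to 0.15 without a library.

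In the fit of 5 Mb regions, Ifng minus Lpin1 of chromosome 9 was 0.50 with DESeq2, 0.39 with at least 2 reads and 0.30 to 1.01 without a library, no longer passing with DESeq2, with at least 2 reads and in 6 of 16 leave-outs. Pparg minus Lpin1 of chromosome 9 passed with the replicate block (-0.68) and ranged over -2.26 to -0.18 without a library, and that of chromosome 2 over -0.024 to 0.49. Day 6 minus day 0 with Pparg was 1.62 with at least 2 reads and 1.14 to 2.92 without a library on chromosome 2, -6.11 to 0.94 on chromosome 7 and -5.67 to 0.93 on chromosome 9. With Lpin1 it was 0.34 with at least 2 reads and -0.82 to 0.0048 without a library on chromosome 2, and -0.46 to 1.01 on chromosome 9. With Ifng it was -0.019 to 0.59 on chromosome 7. B cells minus 3T3-L1 of chromosome 7 was 1.56 with DESeq2 and 1.46 with at least 2 reads for Pparg, no longer passing, and 0.14 with the replicate block and -0.11 to 0.021 without a library for Ifng. On chromosome 9 with Lpin1 it was -0.015 to 0.68. An adjusted p that DESeq2 gave as NA was left out.

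The counts of cluster windows called, 9 against Pparg and 8 against Lpin1, were 26 and 20 with no filter, 0 and 0 with windows of 200 kb and with at least 2 reads, where no cluster window was tested, and 3 to 11 and 2 to 9 without a library. DESeq2 gave 5 against Lpin1, and Pparg minus Lpin1 had 1 with windows of 1 Mb. Same-numbered replicates of different baits were only weakly correlated. With replicate numbers as a block every bait difference named in the report kept its side of the threshold, Ifng minus Pparg at adjusted p of 0.0141 to 0.0234 by the exact sign-flip test, apart from Pparg minus Lpin1 of chromosome 9 above. The cause of these changes was not tested. Depth limits precision: a cluster held at most 33 captured sites in a Pparg library and 35 in a Lpin1 library, against 125 in an Ifng library.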
